A study of Mus musculus with 8 samples.

Results

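Focal adhesions are the sites at which a cell's actin cytoskeleton is fastened through integrins to the matrix outside it. Talin binds the tail of the integrin β subunit and activates it, vinculin and α-actinin couple talin to actin filaments, filamin crosslinks those filaments, and the kinase FAK (Ptk2) with the adaptors paxillin and zyxin gathers at the same plaques as signalling and strain-sensing parts. Integrin-linked kinase and α-parvin form, with PINCH, a further bridge to actin. In smooth muscle the same proteins make up the dense plaques along the cell membrane that carry contractile force, and smooth muscle surrounds the glands of the prostate.

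Transcripts of 10 focal adhesion core genes (Vcl, Tln1, Tln2, Pxn, Flna, Zyx, Ptk2, Ilk, Actn1 and Parva) were measured in mouse prostate. They were taken by symbol from a table of 54532 gene identifiers, and each symbol had 1 identifier. The genes were chosen from the known plaque proteins with results of the comparison of etanercept-treated and control mice in view, so their differences between the groups are given as a description. The calls of the tests across all genes are counted for them, and nothing is read from those counts.

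Whole prostates came from male NOD mice (NOD/ShiLtJ), an inbred strain that develops autoimmune diabetes and, in the study's account, inflammation with prostatic hyperplasia. The control group, named control 1, 3, 65 and 69 by animal number, received PBS, and the etanercept group, named etanercept 17, 19, 50 and 52, received 4 mg/kg etanercept, a soluble TNF receptor fusion protein that binds TNF. Both groups were injected 2 times a week for 5 weeks from an age of 25 weeks, and tissue was taken at 30 weeks. Diabetic and non-diabetic animals were not separated, and the labels do not say which mouse was diabetic. The comparison addresses what TNF blockade changed in the transcripts of the prostate.

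Total counts per mouse were between 13760669 and 25178942. Luminal epithelial genes were present in every library. Krt8, a keratin gene of luminal epithelium, lay between 275 and 476 CPM, the count scaled to a common library size after TMM factors that correct for composition. Several libraries stood apart in genes of neighbouring tissue. The mean log2(CPM + 1) of 7 skeletal muscle markers was 7.31 in control 3 and between 1.53 and 3.21 in the other 7 mice. The seminal vesicle gene Svs2 reached 69757 CPM in etanercept 17 and 2374 CPM in control 69. All 5 tested adipocyte markers had lower means with etanercept. Longer genes were measured relatively higher in the etanercept group: the Spearman correlation between gene length and a gene's deviation from its mean over all mice was between −0.159 and −0.0113 for the control libraries, and in the etanercept group it ran from 0.0640 to 0.155. The 10 genes are long, with a median of 8798 annotated exon bases against 4180 for all tested genes.

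All 10 genes passed the expression filter that left 15472 genes. Per length, filamin A was by far the most abundant transcript of the set, and integrin-linked kinase had the lowest value, which is uncertain because most of its exon bases are shared with genes on the other strand. The level per length was taken as FPKM, the TMM-scaled CPM divided by the exon length in kilobases. The median over the 8 mice was 145.6 FPKM for Flna, with a range from 57.4 to 252.8. Parva, the α-parvin gene, followed at 31.4 FPKM and Actn1, encoding α-actinin 1, at 28.6, with ranges that overlapped each other but not that of Flna. Tln1, encoding talin 1, came next at 16.7 FPKM. Its highest value, 19.6, was under the lowest of Actn1, 19.96, but above the lowest of Parva, 18.2, and the highest Zyx value, 24.7, was above both of these lowest values.

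Tln1, Zyx (16.5 FPKM), Pxn (9.63), Vcl (6.13), Ptk2 (3.06) and Tln2 (2.14) then formed a descending series in which each gene's range overlapped that of the next. Talin 1 was thus the major talin transcript of the tissue, since the lowest Tln1 value, 13.6 FPKM, stood above the highest value of its paralogue Tln2, 2.91 FPKM. Ilk was listed last at 0.211 FPKM, and its highest value, 1.47, lay below the lowest of Tln2, 1.62. With the length of the longest transcript in place of all exon bases, Zyx and Pxn moved ahead of Tln1 and the other places in the order were the same.

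**Figure D1:**
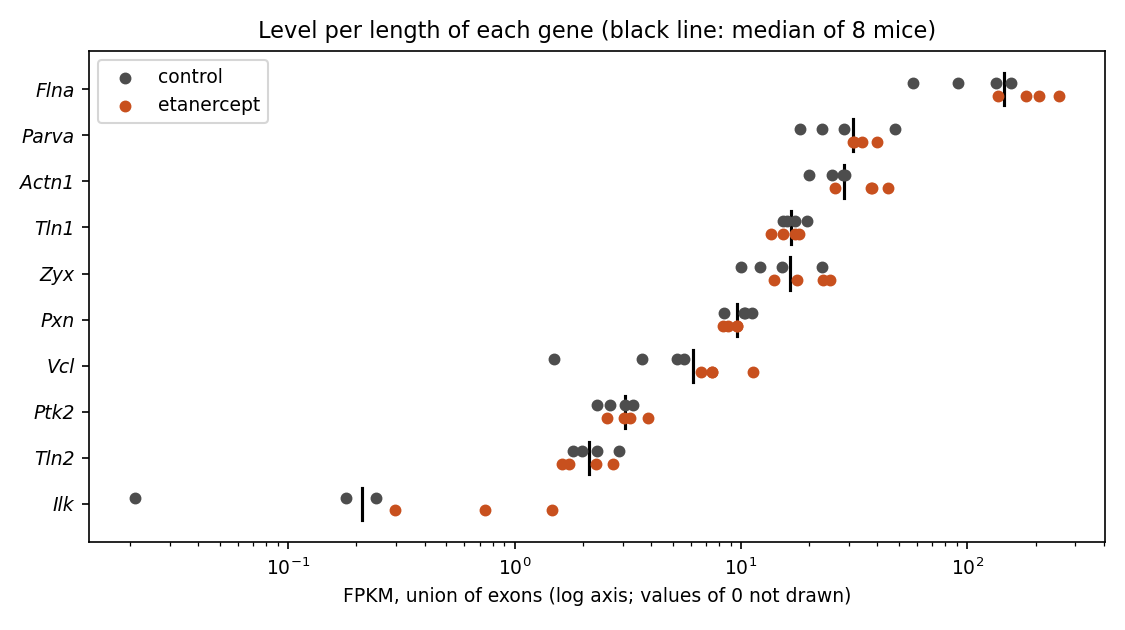
Level per length of the 10 focal adhesion core genes in FPKM on a log axis, with a point for each mouse (grey, control; orange, etanercept) and a black line at the median of the 8 mice. Flna lies to the right of all others, and Ilk, with values of 0 in 2 mice that are not drawn, to the left.

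In the comparison of the groups, vinculin had the clearest separation of the set, and filamin A and α-actinin 1 the next. Vcl was 12.2, 45.7, 30.1 and 42.7 CPM in control 1, 3, 65 and 69 and 54.8, 61.2, 61.2 and 92.8 CPM in etanercept 17, 19, 50 and 52. Every etanercept mouse lay above every control mouse, with control 1 far below and etanercept 52 far above the rest. The means were 32.7 ± 15.2 and 67.5 ± 17.1 CPM (SD, n = 4 each), and the log2 fold change was 1.05 with a standard error of 0.37. Without control 1 it was 0.75, without control 3, the library with skeletal muscle transcripts, 1.25, and after removal of the trend with gene length 0.93. Vcl lies on chromosome 14 of GRCm38 from 20929398 to 21033676 on the plus strand, and 25.5% of its exon bases are shared with Ap3m1 on the other strand. The library kit does not mark strand, so a read in the shared bases may come from either gene, and how the counting treated such reads is not given in the sources used here. Ap3m1 was 60.7 ± 12.4 CPM in control and 85.5 ± 8.45 CPM in etanercept mice, and its part in the Vcl value was not tested.

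The sequence before the Vcl start holds a CArG box, the site bound by serum response factor (SRF), the transcription factor through which actin dynamics reach many cytoskeletal genes. It is shown because Vcl was the only 1 of the 6 focal adhesion core genes with a RefSeq promoter window (Vcl, Tln1, Flna, Zyx, Ilk and Actn1) to hold one. The window covers 250 bases before and 50 bases after the start. Only the full pattern was searched, CC, then 6 letters that are A or T, then GG. Boxes with a mismatch or outside the window were not sought. A CArG box was found in 535 of all 32851 mouse windows (1.63%), and since the motif reads the same on both strands, 1 scan covered both. By gene, 488 of 27025 with a window held one (1.81%). On the pathway lists described further on, among genes with a window, 1 of 9 paralogues (Trip6) and 1 of 16 integrin genes (Itgb6) did. So did 2 of 10 integrin activators and PINCH partners (Fermt2 and Rsu1) and 3 of 21 actin linkers (Fhl1, Fhl2 and Actg1). Of 7 genes of SRF and YAP signalling, Srf itself held one. Of 19 genes of FAK and Src signalling and 10 of contractility, 0 did. The letters describe the sequence and do not show that SRF binds there. The sequences are from RefSeq (GRCm38.p6), plus strand, 5′ to 3′, with the CArG box in capitals. The first is the stretch of 250 bases before the Vcl start, chr14:20929148-20929397, where the box runs from 227 to 218 bases before the start. The second is a stretch of 30 bases before the start of Myl9, chr2:156775293-156775322, which encodes a smooth muscle myosin light chain and was the only 1 of the 9 smooth muscle markers with a window to hold a box.
Vcl: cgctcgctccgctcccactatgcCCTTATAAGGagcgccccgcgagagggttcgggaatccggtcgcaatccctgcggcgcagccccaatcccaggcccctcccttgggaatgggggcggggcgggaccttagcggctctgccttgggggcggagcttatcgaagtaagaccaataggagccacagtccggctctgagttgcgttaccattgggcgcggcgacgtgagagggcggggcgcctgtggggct
Myl9: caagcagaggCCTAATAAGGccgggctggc

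Talin 1 and talin 2, the integrin-binding parts of the set, gave groups that overlapped. Tln1 was 149.7, 192, 170.3 and 157 CPM in control 1, 3, 65 and 69 and 169.8, 134, 150.2 and 177 CPM in etanercept 17, 19, 50 and 52. The 2 groups overlapped over most of their range, and Tln1 was among the most even genes of the set, with a highest value 1.44 times its lowest. Its log2 fold change was −0.09 with a standard error of 0.16. Tln2 was 53.3, 36.6, 33.1 and 42.7 CPM in control mice and 29.8, 50, 41.9 and 32.1 CPM in etanercept mice, in the same order of animals. Its highest values were in control 1 and etanercept 19, the 2 mice with the lowest Tln1 values of their groups. The log2 fold change of Tln2 was −0.11 with a standard error of 0.22.

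Filamin A and α-actinin 1, which crosslink actin filaments, had higher means with etanercept. Flna, on chromosome X from 74223461 to 74249820 on the minus strand, was 539.5, 1459, 1251 and 856 CPM in control 1, 3, 65 and 69 and 1952, 1278, 1707 and 2376 CPM in etanercept 17, 19, 50 and 52. The overlap came from etanercept 19, which lay between control 65 and control 3, and the lowest value was again that of control 1. The means were 1026 ± 410 and 1828 ± 459 CPM (SD, n = 4 each), with a log2 fold change of 0.83 and a standard error of 0.34. It was 0.60 without control 1, 1.05 without control 3 and 0.71 with the length trend removed.

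Actn1 was 110.4, 156, 140.2 and 159.7 CPM in control mice and 208, 145, 211 and 248 CPM in etanercept mice. As for Flna, only etanercept 19 fell within the control range. The log2 fold change of Actn1 was 0.52 with a standard error of 0.20, and it was between 0.39 and 0.65 when each mouse was left out in turn.

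The plaque adaptors zyxin and paxillin both gave groups that overlapped. Zyx was 53.8, 123, 82.2 and 65.4 CPM in control 1, 3, 65 and 69 and 125, 75.4, 95.1 and 133 CPM in etanercept 17, 19, 50 and 52. The groups overlapped, with control 3 as high as the upper etanercept mice. Its log2 fold change was 0.40 with a standard error of 0.28, and it was 0.23 without control 1 and 0.67 without control 3. Pxn varied least of the set between mice, from 68.0 CPM in etanercept 50 to 91.3 CPM in control 1, with a coefficient of variation of 10.6% over the 8 mice. Its log2 fold change was −0.15 with a standard error of 0.14, and it was −0.02 with the trend with GC content removed.

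The kinase FAK and the proteins of the integrin-linked kinase bridge gave overlapping groups. Ptk2 lay between 27.3 CPM in control 65 and 45.7 CPM in etanercept 17, with a log2 fold change of 0.16 and a standard error of 0.19, and the log2 fold change was 0.02 when the length trend was removed. Parva was 487, 231, 289 and 185 CPM in control 1, 3, 65 and 69 and 349, 316, 322 and 405 CPM in etanercept 17, 19, 50 and 52. Control 1, the lowest mouse in Vcl, Flna, Zyx and Actn1, was the highest in Parva. The log2 fold change of Parva was 0.22 with a standard error of 0.29, and it was 0.55 without control 1 and 0.05 without control 69.

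Ilk was nearly absent from the counts. In control 1, 3, 65 and 69 its reads numbered 0, 10, 7 and 1, and the etanercept mice 17, 19, 50 and 52 gave 14, 0, 34 and 58. Counts were thus above 10 in 3 of 4 etanercept mice and in no control mouse, with 1 mouse of each group at 0. A count of 0 allows up to 3 counts, which is 1.19e-05% of the total in control 1 and 1.52e-05% in etanercept 19, for counting error only. Ilk lies on chromosome 7 from 105736592 to 105742925 on the plus strand, and 2461 of its 2744 exon bases (89.7%) are shared with Rrp8 and Taf10 on the other strand, by far the largest share in the set. How the counting treated reads on bases of 2 genes is not given in the sources used here, and whether the overlap bears on the Ilk count was not tested. The level and the difference of Ilk are therefore uncertain, and its log2 fold change of 2.50 had a standard error of 1.59.

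**Figure D2:**
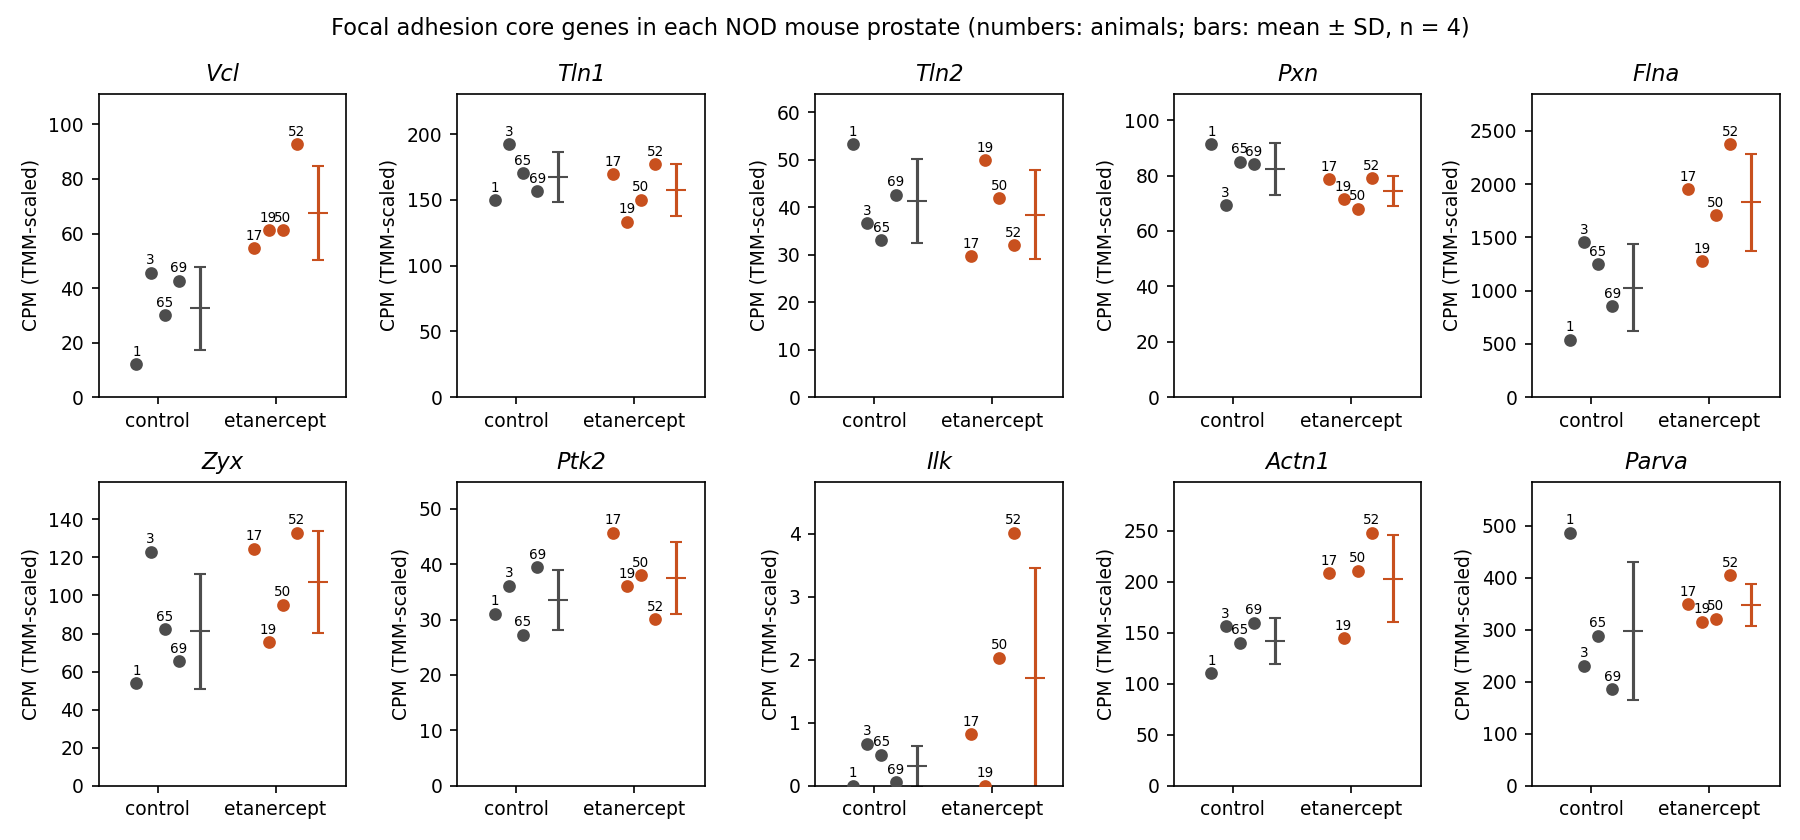
CPM (TMM-scaled) of the 10 focal adhesion core genes in each mouse, with the animal number beside each point and the mean ± SD of the 4 mice of a group at the right of its points. The groups do not overlap in Vcl alone, and control 1 is lowest in Vcl, Flna, Zyx and Actn1 and highest in Parva, Pxn and Tln2.

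Over the set, 7 genes had a log2 fold change above 0 and 3 below, with a median of 0.31 against −0.01 over all tested genes. In the edgeR quasi-likelihood test, with p adjusted after Benjamini and Hochberg and called up to 0.05, 0 of the 10 and 0 of all 15472 genes (0%) passed. Unadjusted, 463 genes were higher and 561 lower at that level. DESeq2 called 0 of the 10 and 21 of the 18664 genes to which it gave an adjusted p (0.113%). With the unadjusted p up to 0.05, edgeR placed 3 of the 10 higher (Vcl, Flna and Actn1), where 2.99% of all tested genes were, and 0 lower, where 3.63% were. DESeq2 placed the same number, 3, higher, against 2.95% of these genes. The groups did not overlap in 1 of the 10 with higher values (Vcl) and in 0 with lower values, against 2.41% and 2.53% of all tested genes. Since the set was chosen with this contrast known, nothing is read from these counts.

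Between mice of the same group, the genes of the set did not vary as 1 unit. The highest correlations were among filamin A, talin 1 and zyxin, and talin 2 had negative correlations with them. An adjusted p of at most 0.05 was reached by 2 of 45 pairs over all pairings of the mice. It was reached by 1 pair without etanercept 52, and by 0 with permutations within groups. Each gene's log2(CPM + 1) was centred on its group mean, so that the difference between the groups did not enter, and Pearson's r and Spearman's rho were taken over the 8 mice for all 45 pairs. The median r was −0.01, 22 pairs were above 0, and r ran from −0.873 to 0.974. Talin 1 and zyxin had the highest correlation of the 45 pairs, although zyxin varied more between mice, 2.47 times from lowest to highest against 1.44 for talin 1 (r = 0.974, rho = 0.976, adjusted p = 0.0100 and 0.00893, exact permutation tests over 8 mice, two-sided, Benjamini-Hochberg over 45 pairs). Filamin A and zyxin followed (r = 0.935, rho = 0.976, adjusted p = 0.0229 and 0.00893 in the same exact tests). With the 2 mice farthest from the median of the first gene left out, r was 0.983 and 0.916.

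For talin 1 with filamin A, r was 0.893 with an adjusted p of 0.0525 in the exact permutation test, and rho was 0.952 with an adjusted p of 0.0171. These 3 genes, with Actn1, Vcl and Ilk, had positive correlations with each other in all pairs, though Ilk had 0 to 58 reads per mouse. Tln2 went the other way, with r = −0.873 to Tln1 (exact permutation test, adjusted p = 0.0759) and r = −0.872 to Flna (exact permutation test, adjusted p = 0.0617). Ptk2 followed none of them, with r between −0.53 and 0.11. When the mice were permuted only within their groups, 0 of the 45 pairs passed, and the adjusted p was 0.0781 for both of the pairs called above.

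**Figure D3:**
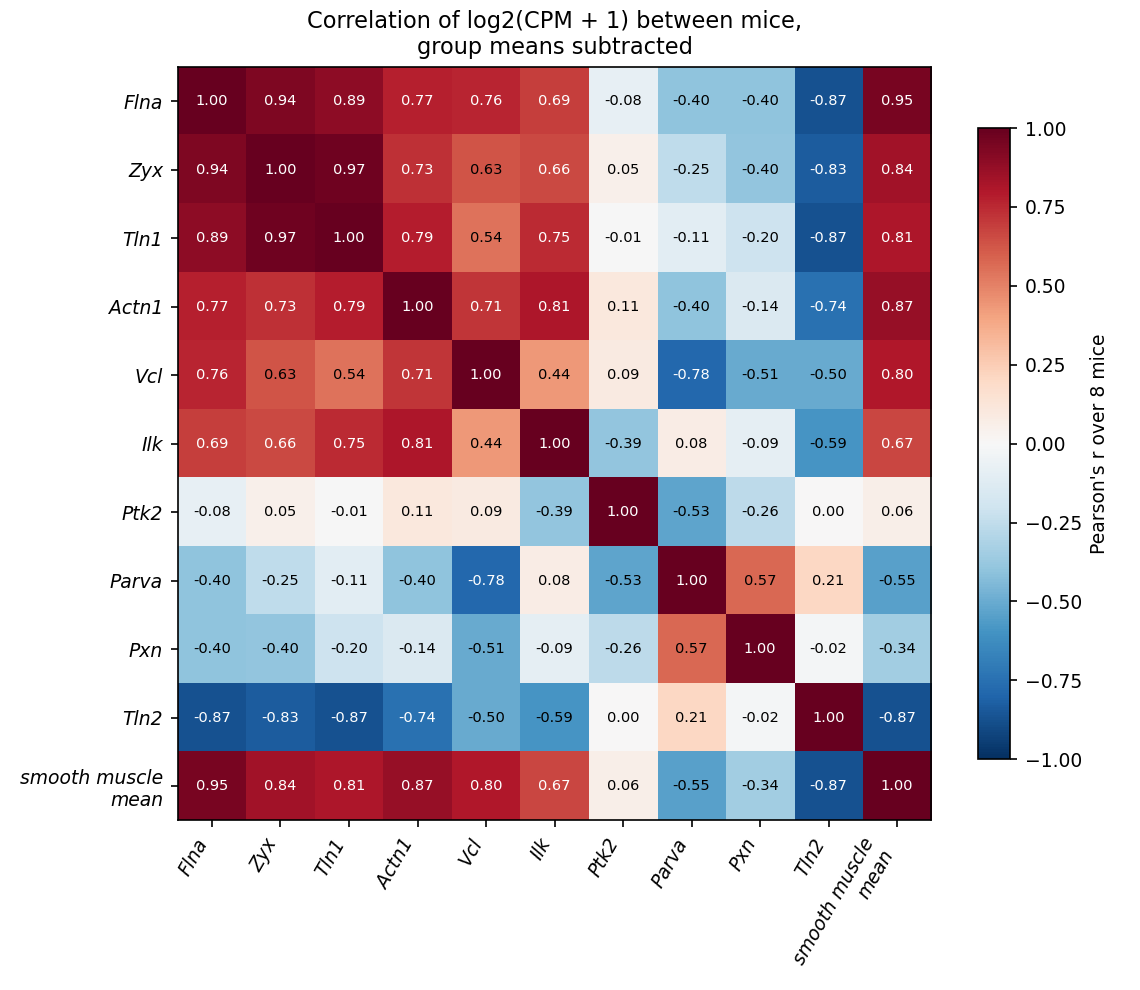
Pearson's r of log2(CPM + 1) over 8 mice, with group means subtracted, for each pair of the 10 focal adhesion core genes and for the mean of 12 smooth muscle markers (last row and column). Red is positive and blue negative, and Flna, Zyx, Tln1, Actn1, Vcl and Ilk form a red block that is blue against Tln2.

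Filamin A, zyxin and talin 1 were correlated across mice with the smooth muscle genes of the library. Smooth muscle was the only cell type list correlated with each gene. The smooth muscle mean was the mean log2(CPM + 1) of 12 contractile and intermediate filament markers (Acta2, Actg2, Myh11, Tagln, Cnn1, Des, Smtn, Lmod1, Mylk, Myl9, Synpo2 and Synm). It was 7.62, 8.79, 8.75 and 8.53 in control 1, 3, 65 and 69 and 9.42, 8.76, 9.34 and 9.56 in etanercept 17, 19, 50 and 52. Control 1 was lowest, and etanercept 19 was the one treated mouse within the control range, as for Flna and Actn1. All 12 markers had positive log2 fold changes, with a median of 0.76, and 7 of them were higher at the unadjusted 0.05 level of edgeR, which 2.99% of all tested genes reached. After adjustment over all tested genes, 0 of the 12 passed in edgeR or DESeq2. This list, like the others, was chosen with earlier results of these data known, so nothing is read from these counts. In bulk tissue, more cells of a type and more RNA per cell cannot be told apart.

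With the group means subtracted, Flna had r = 0.952 and rho = 0.952 with the smooth muscle mean (adjusted p = 0.000992 and 0.0114, exact permutation tests over 8 mice, Benjamini-Hochberg over 10 genes). Zyx had r = 0.839 and rho = 0.905 (adjusted p = 0.0141 and 0.0228 in the same exact tests), and Tln1 had r = 0.811 and rho = 0.881 (adjusted p = 0.0192 and 0.0241, exact tests). Without control 1 and etanercept 19, the 2 mice farthest from the median of the smooth muscle mean, r was 0.965, 0.792 and 0.761. Flna passed in all 8 fits that omitted 1 mouse. Zyx did not pass without etanercept 17, 19 or 52 (adjusted p = 0.0501, 0.0737 and 0.0708, exact tests). Tln1 did not pass without control 3 (adjusted p = 0.0683) or without etanercept 17, 19 or 52 (adjusted p = 0.0602, 0.0737 and 0.0849, exact tests), nor with library size alone (adjusted p = 0.0719), and its r was 0.325 when the group means were kept.

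Actn1 (r = 0.872, adjusted p = 0.0344, exact test) and Vcl (r = 0.800, adjusted p = 0.0309, exact test) passed for r but not for rho, where the adjusted p was 0.281 and 0.115 in the exact tests. Their relations rested on those 2 mice, since r fell to 0.123 and 0.450 without them. Tln2 was inverse, with r = −0.870 (exact permutation test, adjusted p = 0.0141), rho = −0.762 (exact permutation test, adjusted p = 0.0919) and r = −0.635 without those mice, and it passed for r in all 8 fits that omitted 1 mouse but not when the group means were kept (r = −0.729, exact permutation test, adjusted p = 0.0570). Ilk (r = 0.670), Parva (−0.547), Pxn (−0.345) and Ptk2 (0.06) did not pass. With permutations within groups, Flna, Zyx, Tln1, Tln2, Actn1 and Ilk passed, with adjusted p between 0.0174 and 0.0376, and Vcl did not (adjusted p = 0.102). The relation of Ilk rests on its few reads and is as uncertain as its level.

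**Figure D4:**
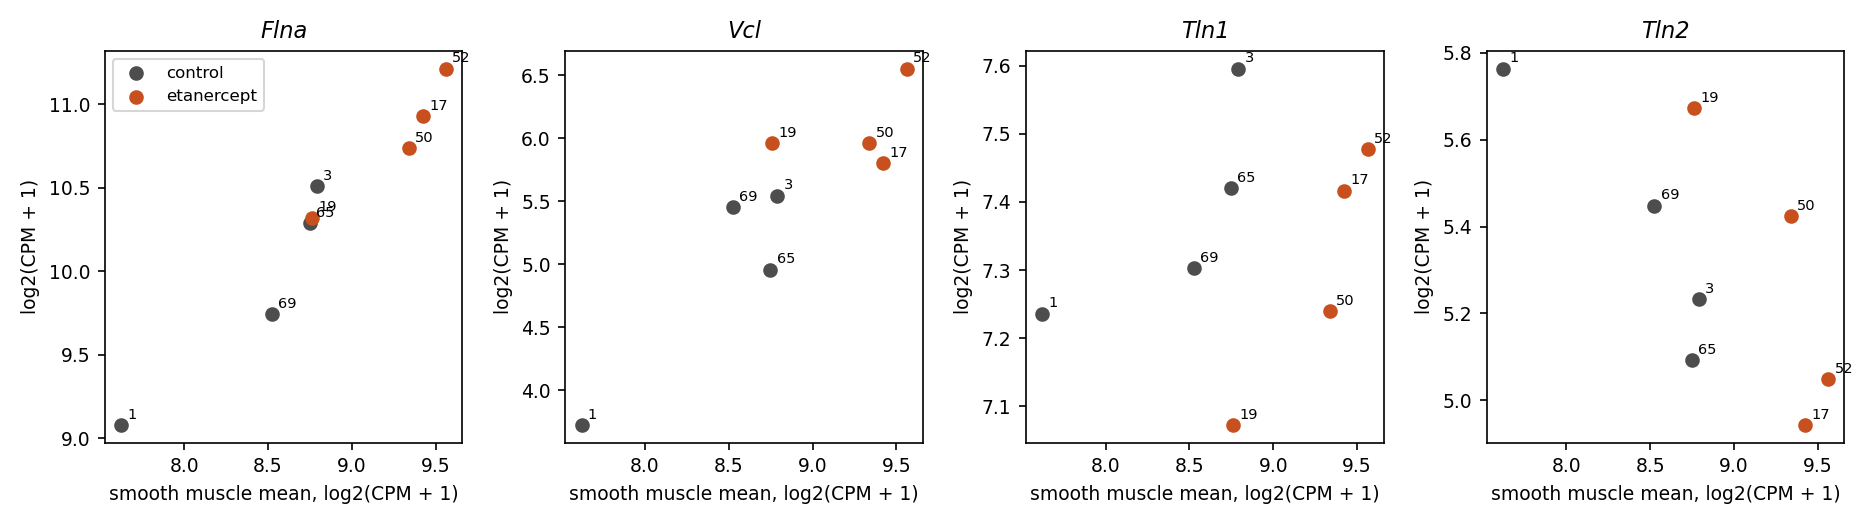
log2(CPM + 1) of Flna, Vcl, Tln1 and Tln2 against the smooth muscle mean, the mean log2(CPM + 1) of 12 markers, with a point for each mouse and its animal number (grey, control; orange, etanercept). Flna rises with the smooth muscle mean along 1 line through both groups, Tln1 rises within each group with most etanercept mice to the right, and Tln2 is highest in the mouse of each group with the lowest smooth muscle mean.

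On a scale set by the smooth muscle markers, Flna and Vcl were the only 2 of the 10 genes with a higher mean in etanercept mice when all 8 mice were used. The log2 ratio of Flna to the smooth muscle mean was 1.49 ± 0.21 in control and 1.53 ± 0.11 in etanercept mice (SD, n = 4 each), a difference of 0.05 where the smooth muscle mean itself differed by 0.85. Vcl was at −3.50 ± 0.40 and −3.20 ± 0.37, and its difference of 0.30 was smaller than either SD. Ilk, at its low counts, had a difference of −0.00255. The other 7 genes had lower ratios with etanercept, by −0.35 for Actn1, −0.42 for Zyx, −0.54 for Parva, −0.69 for Ptk2, −0.94 for Tln1, −0.96 for Tln2 and −0.99 for Pxn. Several of these depended on control 1. Without it, the difference was −0.0028 for Parva, −0.19 for Actn1, −0.46 for Ptk2, −0.57 for Tln2, 0.17 for Vcl and 0.15 for Ilk. The small difference of Flna was −0.04 without control 69 and 0.12 without control 3. Which part of the differences in CPM goes with the amount of smooth muscle in each library was not tested.

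**Figure D5:**
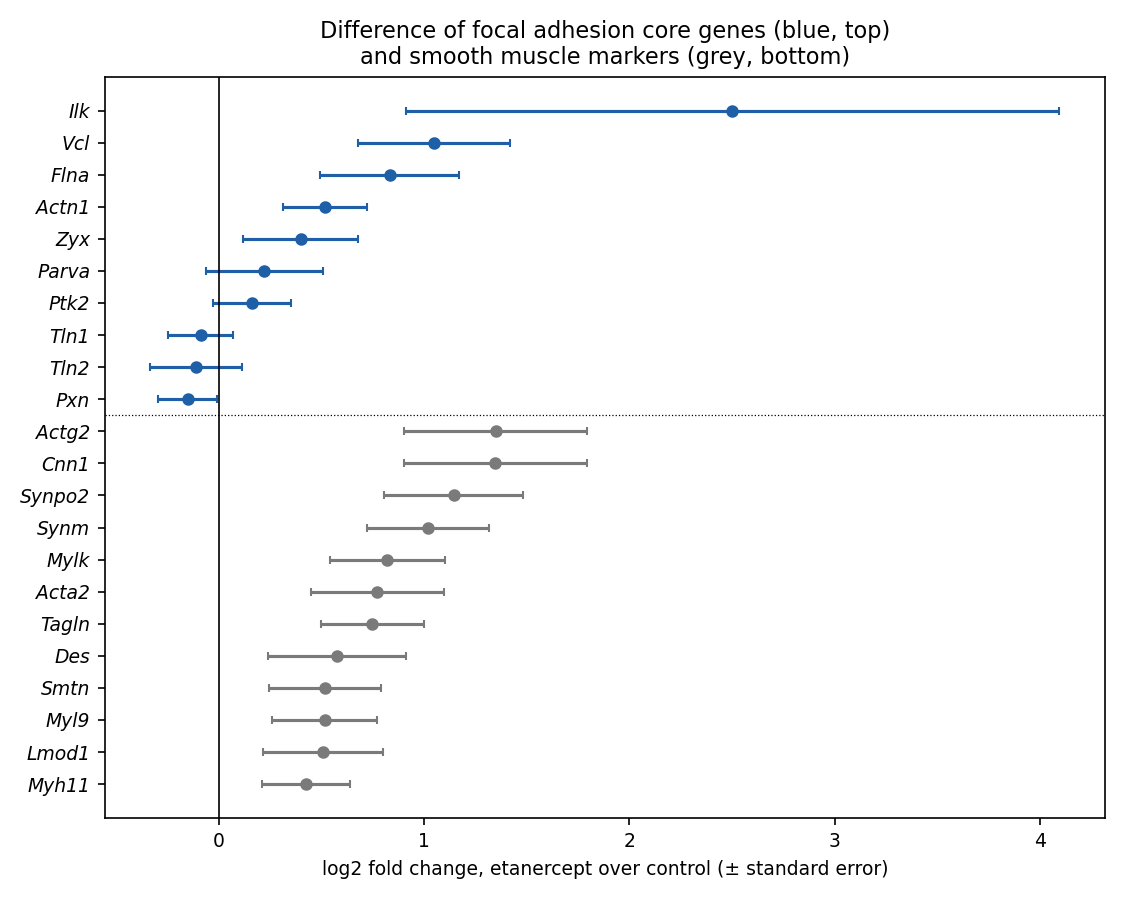
log2 fold change of etanercept over control mice with its standard error from edgeR, for the 10 focal adhesion core genes (blue) and the 12 smooth muscle markers (grey). The markers lie between 0.42 and 1.35, and Vcl, Flna and Actn1 lie within that range while Tln1, Tln2 and Pxn lie just below 0.

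Beside the smooth muscle list, the lists of other cell types went in several directions. At the unadjusted 0.05 level, 2.99% of all tested genes were higher and 3.63% lower. The lists were chosen with earlier results of these data known, so nothing is read from the counts below. All 3 tested seminal vesicle genes had positive log2 fold changes, with a median of 3.96 and the very high libraries named above, and 0 of them reached the unadjusted 0.05 level. All 5 tested adipocyte markers were lower at that level, with a median of −3.46, and DESeq2 called 2 of them after adjustment. Of 8 fibroblast markers, 0 were higher or lower at the unadjusted 0.05 level, and the list mean was between 4.90 and 6.46 in control and between 5.48 and 6.23 in etanercept mice. Of these 8, 3 had positive log2 fold changes, and the median was −0.10, with Col1a1 and Col1a2 at 1.01 and 0.59. All 6 endothelial and all 5 basal epithelial markers had negative log2 fold changes, with medians of −0.49 and −0.63, and 0 endothelial and 3 basal markers were lower at the unadjusted level. The basal keratin gene Krt5 was between 50.9 and 109.8 CPM in control and between 28.5 and 74.8 CPM in etanercept mice. The luminal epithelial and leukocyte lists, of 8 markers each, had medians of −0.19 and −0.40, with 7 and 8 markers negative, and 0 and 1 lower at the unadjusted level. Of the 7 tested skeletal muscle markers, 3 were lower at that level, with a median of −3.34, and in DESeq2 0 were. Their mean was 7.31 in control 3, between 1.53 and 2.51 in the other control mice and between 2.90 and 3.21 in etanercept mice. The lower values with etanercept thus rested on control 3. The part of these cell types in the values of the 10 genes was not tested.

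The paralogues of the set varied around a median log2 fold change near 0. Of 14 listed, 13 passed the filter (among them Flnc, Actn3, Actn4, Ptk2b, Parvb, Parvg, Lpp, Trip6, Limd1, Ajuba, Tgfb1i1 and Lpxn), with a median of 0.07. In the zyxin family Lpp was at 0.57 and Ajuba at −0.36, and in the paxillin family Tgfb1i1 was at 0.44 and Lpxn at −0.39. At the unadjusted 0.05 level, 0 were higher and 1 was lower, where 2.99% and 3.63% of all tested genes were. The lower one was Actn3, the α-actinin of fast skeletal muscle fibres, at 244 CPM in control 3 and between 1.30 and 11.2 CPM in the other mice. Non-muscle α-actinin 4 (Actn4) had a log2 fold change of −0.05 ± 0.17 (SE).

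Among the surrounding pathway genes, the integrin activator kindlin-2 and several actin linkers were higher with etanercept at the unadjusted level, and 0 genes passed adjustment. Of 115 tested genes on 7 lists, 17 were higher and 5 lower at the unadjusted 0.05 level, which 2.99% and 3.63% of all tested genes reached, and 73 had a positive log2 fold change, with a median of 0.14. The 17 became 9 with the length trend removed, and 7 without control 1 or without etanercept 52. These lists too were chosen with earlier results of these data known, so nothing is read from these counts. In the list of integrin activators and PINCH partners, 2 of 13 were higher and 0 lower. Fermt2, encoding kindlin-2, the talin co-activator of integrins, was 43.4, 66.5, 46.6 and 58.2 CPM in control 1, 3, 65 and 69 and 100.6, 75.5, 88.9 and 105.1 CPM in etanercept 17, 19, 50 and 52. Its groups did not overlap, and its log2 fold change was 0.79 ± 0.19 (SE). Lims1, encoding PINCH1, the partner of integrin-linked kinase, followed at 0.54 ± 0.20. Fermt3, the kindlin of blood cells, was at −0.73 ± 0.33 and did not pass.

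Of 19 integrin genes, 2 were higher and 1 lower. Those higher were Itga1, a collagen receptor subunit (0.72 ± 0.26), and Itga7, a laminin receptor subunit of muscle (0.81 ± 0.33). The lower one was Itgb7, a leukocyte integrin subunit (−1.01 ± 0.41). Of 22 genes of FAK and Src signalling, the Src family kinase Yes1 (0.51 ± 0.16) and the Ras GTPase-activating protein Rasa1 (0.52 ± 0.18) were higher, and Arhgef7, encoding the exchange factor β-PIX, was lower (−0.47 ± 0.19).

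Of the actin linkers, the longest of these lists, 6 of 27 were higher and 1 lower at the unadjusted level. Tes, encoding the zyxin partner testin, was at 0.66 ± 0.24, and profilin 1 (Pfn1), which supplies actin monomers, was lower at −0.54 ± 0.16. Of 11 genes of actomyosin contractility, 3 were higher and 1 lower, among them the kinase gene Rock1 (0.53 ± 0.19), the myosin phosphatase subunit gene Ppp1r12b (0.83 ± 0.33) and the non-muscle myosin light chain gene Myl12a (−0.40 ± 0.16). Of 10 genes of SRF and YAP signalling, Tead1 (0.46 ± 0.18) and Myocd (1.23 ± 0.51), encoding myocardin, the SRF coactivator of smooth muscle, were higher. Wwtr1, encoding TAZ, was at 0.63 ± 0.33 and did not pass.

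The genes whose pattern between mice was most like the mean of the set included the matrix gene Bgn, but 0 genes passed after adjustment (858 unadjusted, at 0.05) in the exact permutation test. Likeness was Pearson's r over 8 mice, group means subtracted, with the mean of the 10 standardised genes, ranked over 15462 other tested genes. Among the 10 highest were Orc3 (r = 0.990), Mtfr2 (0.976), the β-tubulin gene Tubb6 (0.972), Wfdc1 (0.968), a secreted protein gene of prostate stroma, the proteoglycan gene Bgn (0.968), Itpkb (0.963), Adam28 (0.962), Ehd2 (0.954) and the tetraspanin gene Tspan2 (0.954). Of these, Mtfr2 and Adam28 were low, at most 2.01 and 5.34 CPM in any mouse. The ranking was unstable: between 2 and 7 of the 10 highest stayed when 1 mouse was left out, and 3 with group means kept. Since Tln2 enters the same mean with a pattern opposed to that of Tln1, likeness to the mean is not likeness to every gene of the set. The median r with this mean was 0.78 over smooth muscle, 0.58 over fibroblast and 0.56 over skeletal muscle markers. It was −0.43 over luminal epithelial markers and between 0.08 and 0.33 over the other cell type lists.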

How the data were processed

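Bulk RNA-seq of poly(A)-selected RNA from 8 NOD mouse prostates was used. The authors mapped reads with STAR 2.6.1d to mm10, per the labels, and deposited whole-number counts per gene from featureCounts 1.5.0-p3, not normalized. Total counts of 13760669 to 25178942 per mouse give counting error only, and single counts carry no molecular identifier. Identifiers were matched to GENCODE M21 (GRCm38), with 37 of 54532 not found. The library kit does not mark strand, so overlapping genes are uncertain.

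CPM were TMM-scaled in edgeR 4.0.16 (R 4.3.3), with filterByExpr at a minimum count of 10, the quasi-likelihood test and Benjamini-Hochberg adjustment at 0.05. DESeq2 1.42.0 was an alternative, restricted to the genes of the main filter for unadjusted counts. FPKM used the union of annotated exons. Correlations used log2(CPM + 1), group means subtracted, and 40320 pairings of 8 mice, two-sided. They were computed with Python 3.11.15 and numpy 2.4.6. Each library is 1 animal. Scripts were tested on simulated data.

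The genes and lists were chosen with earlier results of these data known. Named genes were all 10 of the set, the paralogues as a group, at most 3 of each pathway list by smallest p, the smooth muscle markers, the first genes of other marker lists and the 10 genes most like the set. Some genes that the rule names are not reported here. Actn3 and the overlapping genes Ap3m1, Rrp8 and Taf10 were named after their values were seen. Alternatives were other factors, filters, length or GC trends removed (lowess span 0.3), a block for low (below 20) and high (above 49) animal numbers, another pseudocount and leaving out each mouse. The permutations within groups and the ratios without each mouse were added after the data were seen.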

Additional observations from a re-analysis of the deposited data

Results flagged for a closer look

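Of 58 groups of 4 mice examined, 3 held a mouse whose gap to its nearest neighbour took up more of the group's range than Dixon's 95% critical value for 4 samples allows, where chance gives about 1 in 20. Vcl in etanercept 52 was 92.8 CPM, far above the other 3 etanercept mice, with a gap of 0.83 of the range. The log2 ratio of Tln1 to the smooth muscle mean in control 1 was −0.386, above the other control mice, with a gap of 0.86 of the range. The skeletal muscle marker mean in control 3 was 7.31 on the log2(CPM + 1) scale, with a gap of 0.83 of the range.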

How the results depend on the processing

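Of 169 log2 fold changes of the 10 genes under up to 17 alternatives, 167 kept their direction, and Tln1 (0.029 with the GC trend removed) and Tln2 (0.020 without control 1, −0.26 to 0.020 over all mice left out in turn) turned. Called genes numbered 0 in edgeR, also without each mouse (0 to 0), 21 in DESeq2 and 1024 at an unadjusted p of at most 0.05. Pathway genes at that threshold numbered 17 higher and 5 lower. They were 9 higher with the length trend removed and 8 lower with library size alone, and without each mouse 7 (without control 1 or etanercept 52) to 25 higher and 2 to 7 lower. Of the 45 pairs, 2 passed, against 5 with group means kept, 4 with library size alone, 0 with permutations within groups and 1 (without etanercept 52) to 6 (without control 69) without each mouse. The smooth muscle relation passed for 6 of the 10 genes, for 5 with group means kept, and for 2 (without etanercept 19 or 52) to 6 without each mouse. Of the 10 most similar genes, 3 stayed with group means kept, 4 with library size alone, 5 with the length trend removed, and 2 to 7 without each mouse. The cause of these shifts was not tested. Levels per length with the longest transcript were higher for all 10 genes, such as 42.3 FPKM for Actn1. Ilk had at most 58 counts in a mouse, which limits its values. No paired analysis was possible because the groups share no animal number.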
